A study of Solanum lycopersicum with 26 samples.

Results

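Embryo-restricted genes of the mature tomato seed were taken as the genes whose reads were almost all in the embryo. A gene was included when its mean over the 14 embryo libraries was at least 20 CPM (counts of a gene per 1000000 counts of its library) and at least 50 times its mean over the 12 endosperm libraries. Of 33976 gene IDs, 55 met both conditions, which is 0.734% of the 7492 IDs with an embryo mean of at least 20 CPM. With the tissues exchanged, 140 IDs met the same conditions for the endosperm. The members were therefore chosen by their measured levels, and the contrast between tissues is given below as a description, without a test.

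Fruits of the cultivar Moneymaker were excised when they began to colour, 63 days after flowering, and ripened in growth chambers for 7 days, so that seeds were 70 days old at harvest. Days and nights were at 32 °C and 26 °C under high temperature (HT), and at 23 °C and 20 °C under standard temperature (ST). Dim light (DL) was 25 µE and high light (HL) was 300 µE, both for 16 h a day. The embryo groups were HT_HL (n = 3), ST_DL (n = 3), HT_DL (n = 4) and the standard condition ST_HL (n = 4), and each condition had 3 endosperm libraries. All groups share the genotype, the excision of the fruit and the hand dissection of the seed. A replicate was 10 seeds from 2 fruits, and the labels do not say whether these came from separate plants, so p-values measure the spread between these samples only. The methods of the study give 3 replicates, whereas HT_DL embryo and ST_HL embryo have 4 libraries each, and this difference is not explained.

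The embryo is the part of the seed that grows into the seedling. The endosperm surrounds it, stores reserves and resists the emergence of the root. Seed tissues share reserve and desiccation programmes, and each also has genes of its own. No defining markers of either tissue could be checked, because the IDs were matched to no gene symbols. A level in bulk RNA cannot tell fewer cells of a type from less RNA per cell.

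Total counts were between 20450644 and 21519318 in every library, so depth hardly differed. ST_HL embryo replicates 2 and 3 and HT_DL embryo replicates 2 and 3 stood apart from the other 10 embryo libraries. On the first principal component, which held 64.3% of the variance, these 4 libraries lay between 120.72 and 126.21 and the other 10 between -65.64 and -27.36. They also had 18796 to 19017 genes with 10 or more counts, against 17003 to 17479 in the other 10. HT_HL and ST_DL hold none of these libraries, so calls in the comparisons below are given with and without them.

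The levels of the 55 genes fell into different patterns over the embryo libraries. In 22 genes the level was at least 20 CPM in all 14 libraries, in 11 genes it was so in 10 to 13 libraries, in 10 genes in 5 to 9 libraries, and in 12 genes in exactly 4. In 24 genes all 4 libraries that stood apart were above all 10 others, and in 0 genes were all 4 below. In 10 of the 24 the gap was at least 10-fold, and in 7 it was at least 100-fold. The 4 libraries held a median of 40.3% of the embryo CPM of a member, where an even share would be 28.6%. All genes were not counted in this way, and the rule used a mean that high values in these 4 libraries raise. So neither these counts nor this share are read as a trait of the members.

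**Figure D1:**
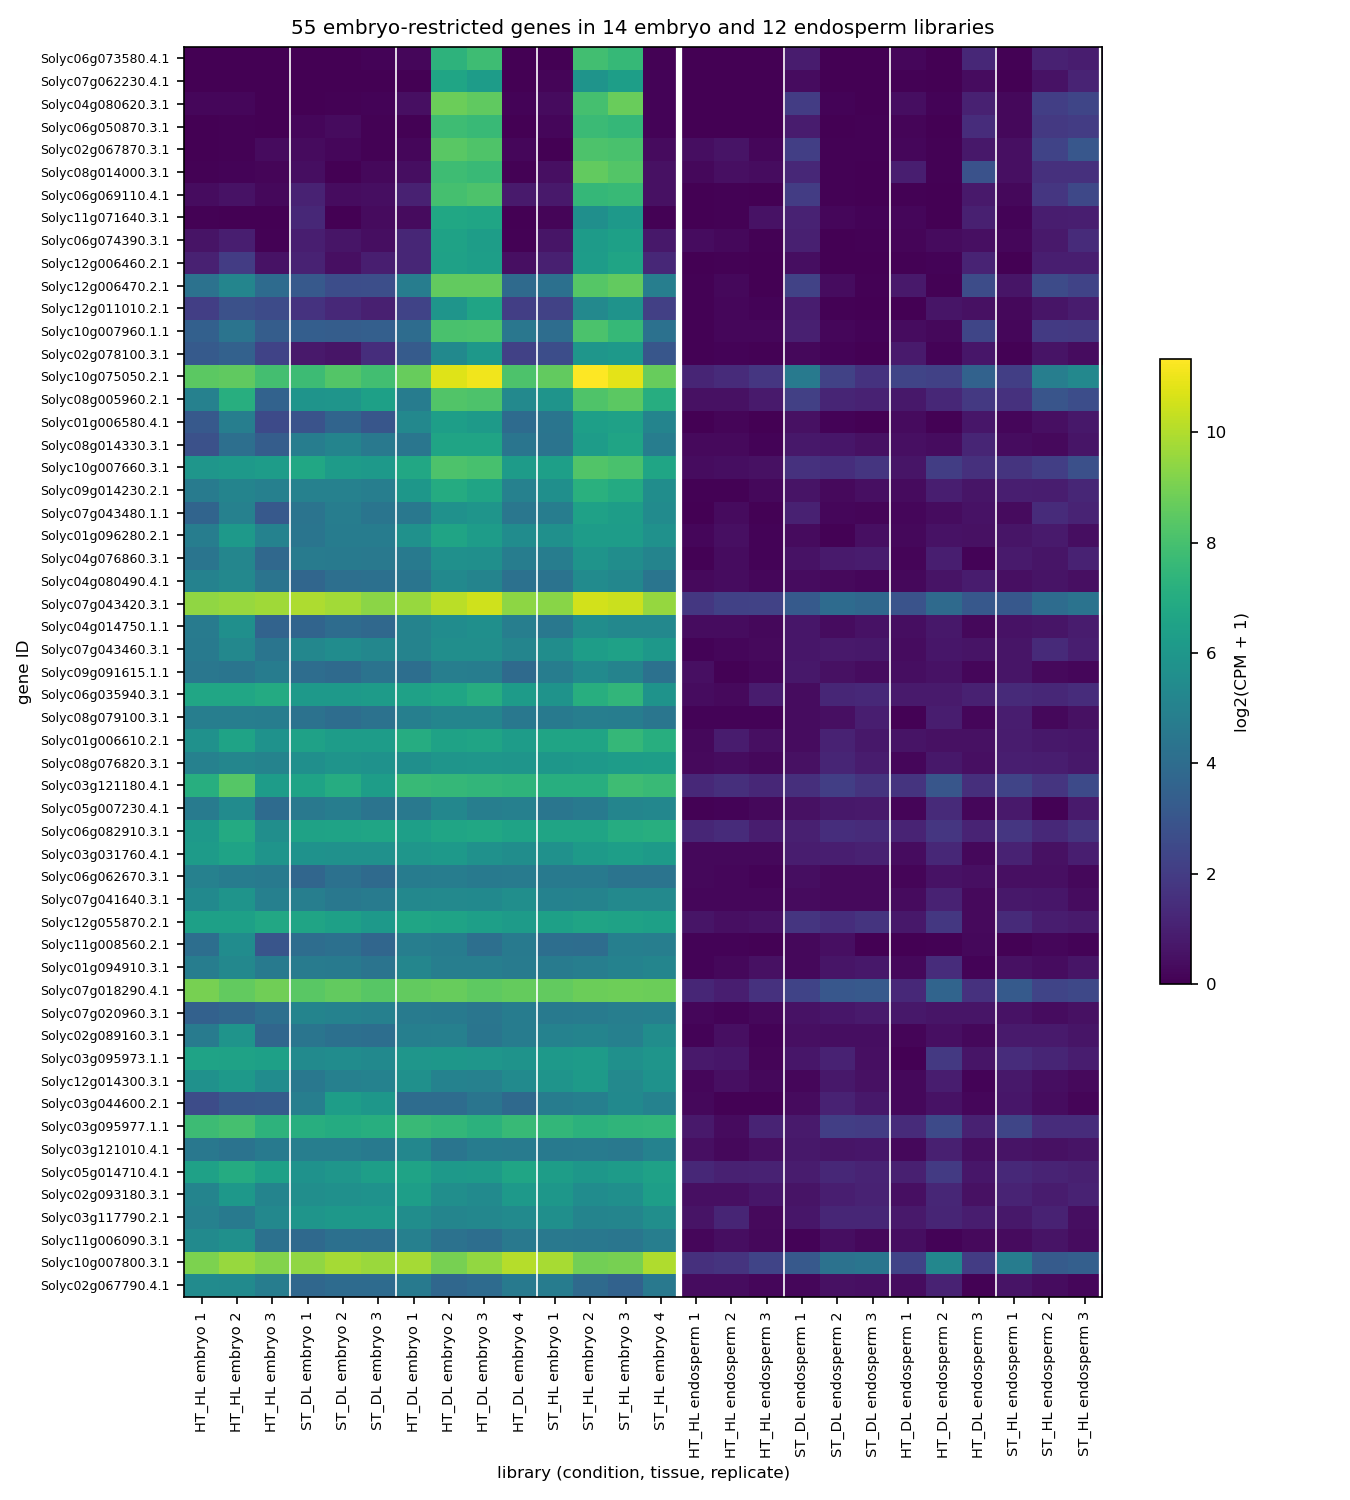
Level of each of the 55 genes as log2(CPM + 1) in every library, with embryo libraries left of the thick white line and endosperm libraries right of it, and genes ordered from the highest share of embryo CPM in ST_HL replicates 2 and 3 and HT_DL replicates 2 and 3. The upper genes are near 0 in 10 embryo libraries and high in those 4, and the lower genes have similar levels in all 14.

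The name embryo-restricted did not hold for every member. In 11 genes the median over the 14 embryo libraries was under 5 CPM, and the mean of 20 CPM was reached through ST_HL replicates 2 and 3 and HT_DL replicates 2 and 3 alone. Solyc04g080620.3.1 had 441 and 374 CPM in HT_DL replicates 2 and 3 and 248 and 421 CPM in ST_HL replicates 2 and 3. Its highest value in the other 10 embryo libraries was 0.386 CPM, and its endosperm mean was 1.03 CPM. When those 4 were left out, the embryo mean of this gene was thus 0.122 times its endosperm mean. Without them, 8 of the 55 genes had a lower mean in the embryo than in the endosperm, where all 12 endosperm libraries were kept.

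Solyc02g067870.3.1 had 269 to 341 CPM in the 4 libraries and at most 0.245 CPM in the other 10. Solyc08g014000.3.1 had 200 to 391 CPM and at most 0.432 CPM, and Solyc06g050870.3.1 had 186 to 222 CPM and at most 0.240 CPM. For scale, 3 counts are 0.139 to 0.147 CPM in these embryo libraries. The files used here give no description for them.

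The summed level of the 11 genes followed the same split. It was 2088 and 2010 CPM in HT_DL replicates 2 and 3 and 1841 and 1962 CPM in ST_HL replicates 2 and 3, against 3.16 to 10.8 CPM in the other 10 embryo libraries. In the endosperm, 4 libraries were also higher for these genes, with 16.0 CPM in ST_DL replicate 1, 15.1 CPM in HT_DL replicate 3, and 19.0 and 27.4 CPM in ST_HL replicates 2 and 3. The other 8 endosperm libraries had 0.238 to 2.03 CPM. The 11 genes made up 18.0% to 22.5% of the summed level of all 55 in the 4 embryo libraries and 16.0% to 21.5% in those 4 endosperm libraries, against 0.0774% to 0.224% in the other embryo libraries and 0.322% to 5.75% in the other endosperm libraries. The part of these libraries in the ratios between tissues was not tested beyond leaving the 4 embryo libraries out.

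The other 44 genes had a summed level of 3788, 4821 and 3606 CPM in HT_HL embryo, 3769, 4081 and 3586 CPM in ST_DL embryo, 4538, 7197, 7952 and 4220 CPM in HT_DL embryo and 4189, 8396, 7804 and 4883 CPM in ST_HL embryo. The same 4 libraries were highest for this sum. In the endosperm the sum was 19.5, 23.2 and 24.6 CPM in HT_HL, 75.1, 77.4 and 73.6 CPM in ST_DL, 33.2, 115 and 55.1 CPM in HT_DL and 83.6, 99.8 and 118 CPM in ST_HL. All 3 HT_HL endosperm libraries were below the other 9, a difference that was not tested.

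**Figure D2:**
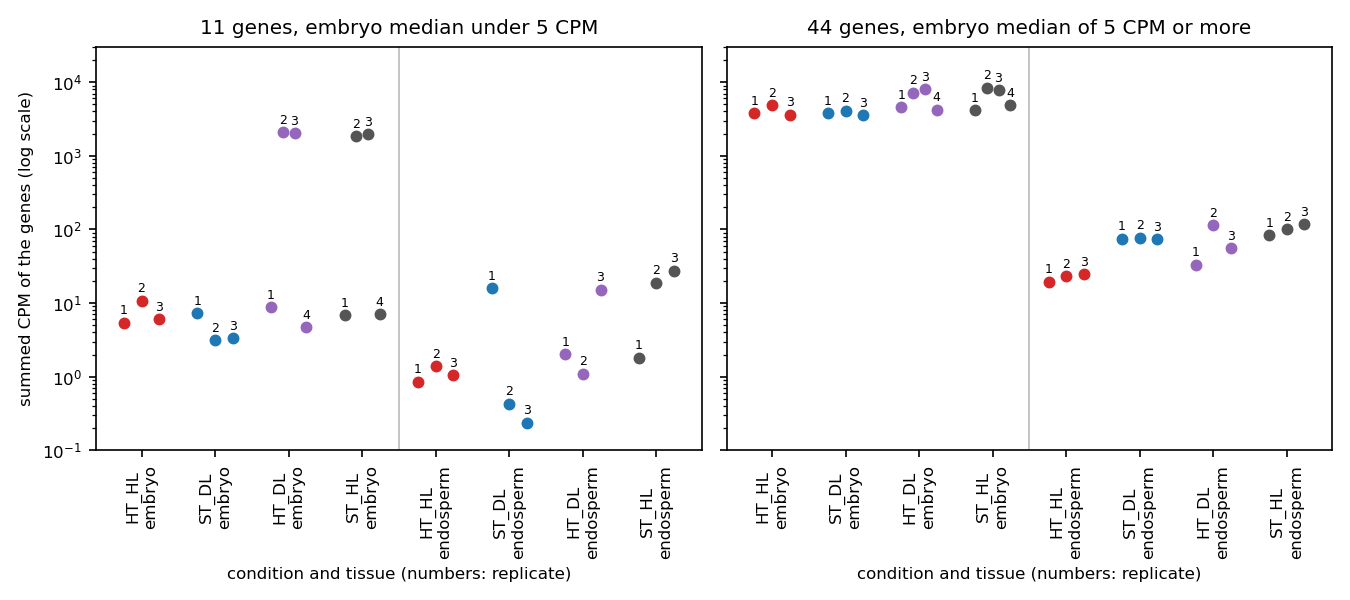
Summed CPM (log axis) of the 11 genes with an embryo median under 5 CPM (left) and of the other 44 genes (right) in each library, by condition and tissue, with the replicate number beside each point. The 11 genes reach 1841 to 2088 CPM in 4 embryo libraries and at most 10.8 CPM in the other 10, whereas the 44 genes lie between 3586 and 8396 CPM in all 14.

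The ratio of the embryo mean to the endosperm mean had a median of 76.4, and 10 genes reached 100 or more. It was largest in Solyc11g008560.2.1, at 188, with an embryo mean of 20.9 CPM and an endosperm mean of 0.111 CPM. All 55 genes had some count in the endosperm, and 39 had a count in every endosperm library. The highest endosperm value of any member was 38.1 CPM, for Solyc10g075050.2.1 in ST_HL replicate 3, so restriction here is a matter of degree.

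The genes nearest the limits differed little across them. Solyc03g121010.4.1 and Solyc03g117790.2.1 were just inside with ratios of 52.8 and 50.3, and Solyc05g006050.3.1 and Solyc06g048840.3.1 were just outside with 49.5 and 49.3. Of these, Solyc06g048840.3.1 had an embryo mean of 8827 CPM and an endosperm mean of 179 CPM. On the level, Solyc12g011010.2.1 and Solyc02g078100.3.1 were just inside with embryo means of 20.3 and 20.2 CPM, and Solyc06g064820.3.1 and Solyc11g012590.3.1 just outside with 19.9 and 19.8 CPM. On the other 10 embryo libraries, 36 genes met the rule, of which 34 were among the 55. The 2 that entered were Solyc06g048840.3.1 and Solyc12g098130.1.1.

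Among the 10 members with the most reads, several varied little. Solyc07g018290.4.1 had 334 to 504 CPM over the 14 embryo libraries (median 393 CPM) and a mean of 4.65 CPM in the endosperm. Solyc03g095977.1.1 had 122 to 255 CPM (median 171 CPM) and a mean of 2.04 CPM in the endosperm. Solyc10g007800.3.1 had 475 to 1073 CPM (median 732 CPM) and 11.8 CPM in the endosperm, and its 3 lowest embryo values were those of HT_DL replicate 2 and ST_HL replicates 2 and 3. These genes passed the rule with and without the 4 libraries.

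Solyc07g043420.3.1 had the most reads of all members, with 640 to 1506 CPM (median 807 CPM) in the embryo and a mean of 9.57 CPM in the endosperm. Solyc10g075050.2.1 had 1763 and 2174 CPM in HT_DL replicates 2 and 3 and 2555 and 1826 CPM in ST_HL replicates 2 and 3, against 213 to 417 CPM in the other 10. Solyc10g007660.3.1 had 256 to 303 CPM in those 4 and 60.1 to 110 CPM in the other 10, and Solyc08g005960.2.1 had 282 to 352 CPM and 10.9 to 136 CPM. The last 3 did not meet the ratio of 50 without the 4 libraries, when their ratios were 31.4, 40.5 and 28.7. Solyc03g121180.4.1 ranged from 76.2 to 323 CPM with both extremes in HT_HL, in replicates 3 and 2.

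Little is known of the functions of the members from the files used here. The MapMan annotation of the study, used in part, described 2 of them. Solyc12g006470.2.1 is listed as a GABA pyruvate transaminase, the enzyme that breaks down the amino acid GABA by passing its amino group to pyruvate. Whether this gene has that role was not tested. It had 388 and 385 CPM in HT_DL replicates 2 and 3 and 324 and 389 CPM in ST_HL replicates 2 and 3, against 5.32 to 35.1 CPM in the other 10 embryo libraries. Of the 7 IDs listed under GABA degradation it was the one member. Its neighbour Solyc12g006450.2.1, also listed as a GABA pyruvate transaminase, had a ratio of 8.52, and Solyc07g043310.3.1, with the same description, had 59.4 CPM in the embryo and 51.5 CPM in the endosperm. The fourth gene so described, Solyc08g014610.4.1, had a ratio of 92.0 but an embryo mean of 2.20 CPM, under the limit of the rule.

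Solyc07g062230.4.1 is listed as a SEIPIN, a protein that shapes lipid droplets as they form at the endoplasmic reticulum. It had 100 and 76.6 CPM in HT_DL replicates 2 and 3 and 56.2 and 79.2 CPM in ST_HL replicates 2 and 3, and at most 0.0969 CPM in the other 10, where 8 libraries had 0 counts. The other lipid body proteins were not restricted in this way. Of 27 IDs listed, 22 had an embryo mean of at least 20 CPM, and their median ratio of embryo to endosperm was 1.11. The SEIPIN Solyc04g056380.3.1 had 543 CPM in the embryo and 547 CPM in the endosperm, and the oleosin Solyc03g112440.1.1, which coats seed oil bodies, had 1770 and 1971 CPM.

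No member was listed under photosynthesis (339 IDs), cellular respiration (231 IDs) or carbohydrate metabolism (269 IDs), and 1 was listed under each of lipid metabolism (518 IDs) and amino acid metabolism (210 IDs). The median ratios of these lists were 1.14 to 1.24 over IDs with an embryo mean of at least 20 CPM. The GO annotation, also used in part, described Solyc01g006580.4.1 and Solyc01g006610.2.1. Both carried terms for 2-oxoglutarate-dependent dioxygenase activity, hormone metabolism, the response to hormones, glucosinolate biosynthesis, the response to abiotic stimuli and system development. Dioxygenases of this class use iron and oxygen to oxidise hormones and many specialised metabolites.

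Some members lay close to each other in the order of IDs along a chromosome. Within 10 places, 11 members formed 5 runs. On chromosome 7, Solyc07g043420.3.1, Solyc07g043460.3.1 and Solyc07g043480.1.1 lay within 5 places, with ratios of 97.5, 78.7 and 79.0. Of the IDs between and beside them, Solyc07g043490.1.1 had an embryo mean of 17.7 CPM and a ratio of 36.6, and Solyc07g043440.1.1 and Solyc07g043450.3.1 had no counts. Thus embryo-high IDs and silent IDs alternated there.

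On chromosome 1, the pair of dioxygenases enclosed Solyc01g006600.3.1, with 62.1 CPM in the embryo and a ratio of 42.0, and Solyc01g006585.1.1, with 6.29 CPM and a ratio of 122. On chromosome 12, Solyc12g006460.2.1 and Solyc12g006470.2.1 were adjacent, and both were high in the 4 libraries that stood apart. On chromosome 3, Solyc03g095973.1.1 and Solyc03g095977.1.1 were adjacent, at 40.0 to 94.3 CPM and 122 to 255 CPM. Near-identical copies share reads that Salmon divides between them, so the values of neighbours of this kind would be uncertain. No sequences were compared, so whether any of these neighbours are such copies was not tested. Members were found on all 12 numbered chromosomes, with 2 to 7 on each.

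**Figure D3:**
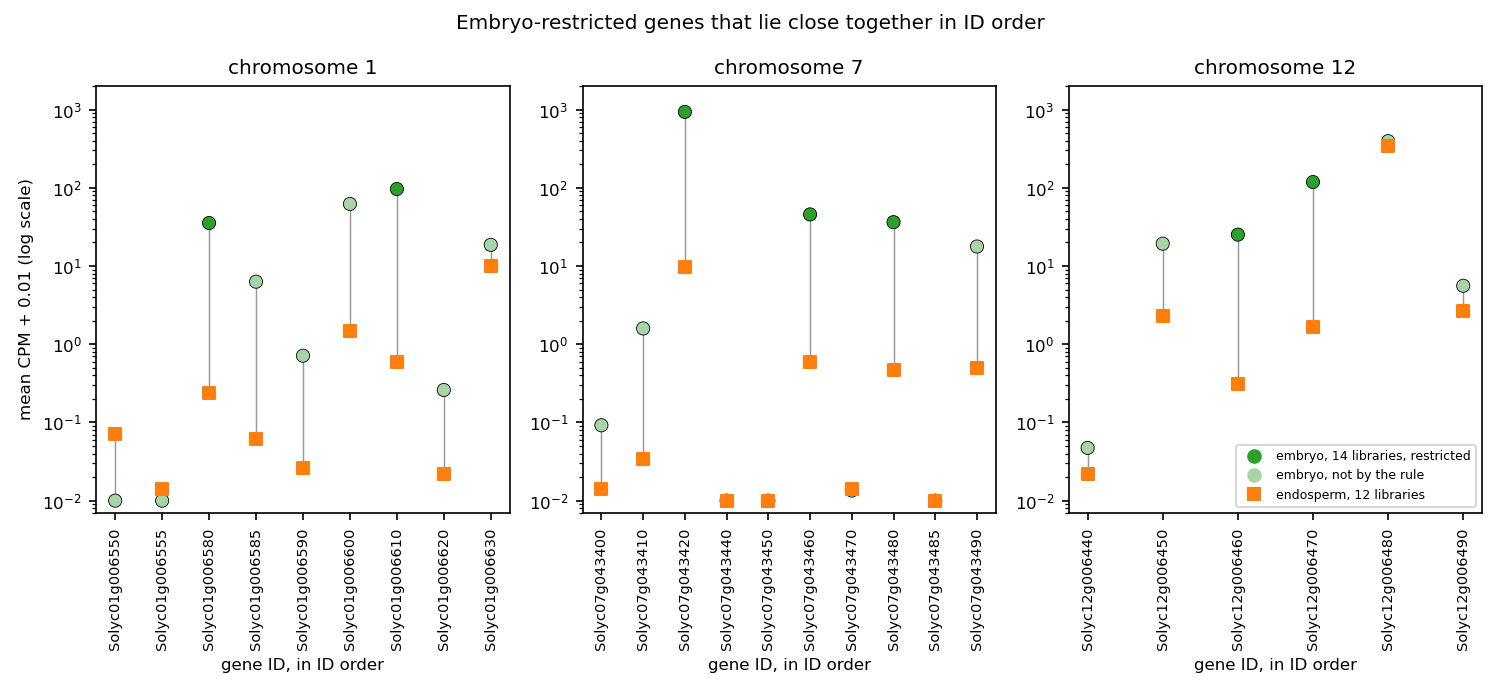
Mean CPM plus 0.01 (log axis) of neighbouring gene IDs on chromosomes 1, 7 and 12, with circles for the embryo (dark green where the gene is embryo-restricted) and squares for the endosperm. Embryo-restricted genes lie beside other embryo-high IDs, such as Solyc07g043490 at a ratio of 36.6, and beside IDs with similar levels in both tissues, such as Solyc12g006480 at a ratio of 1.16.

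The first comparison asked how heat at high light changed the members in the embryo. Of the 55, 9 were lower in HT_HL than in ST_HL and 0 were higher (edgeR's quasi-likelihood test, adjusted p below 0.05 and a log2 fold change beyond 1, which is what called means below). This is 16.4% of the members called lower, where 3.41% of the 19253 genes tested were lower and 1.43% were higher. Nothing is read from this contrast of shares, or of the medians with all libraries, because the rule favours genes that are high in ST_HL. Of the 55, 21 met the rule only through the 4 libraries that stood apart, all in HT_DL or ST_HL. Without them, among the 9, Solyc08g014330.3.1 had a ratio of 45.3 and Solyc01g006580.4.1 an embryo mean of 17.1 CPM. The median log2 fold change was -0.68 over the members and -0.069 over all genes, and 43 members had a negative value. Over the 44 genes with an embryo median of at least 5 CPM it was -0.43. At an unadjusted p below 0.05 there were 29 members and 7218 of the 19253 genes. DESeq2 called 23 members, all lower, with the 9 among them, and 1544 of 19253 genes lower. Without the 4 libraries, 48 members were tested and 5 were called lower, all of them among the 9, where 515 of 18179 genes were lower. The median over the members was then -0.19, with 31 of 48 negative, and over all genes it was 0.017.

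Solyc08g076820.3.1 had 30.2, 35.1 and 32.4 CPM in HT_HL embryo, against 63.6, 67.1, 75.6 and 77.6 CPM in ST_HL embryo. The groups did not overlap, and the ST_HL replicates that stood apart were not extreme. The means were 32.6 ± 2.50 CPM (SD, n = 3) and 71.0 ± 6.69 CPM (SD, n = 4), and the log2 fold change was -1.17 ± 0.11 (SE, edgeR adjusted p = 0.000449). Without the 4 libraries it was -1.21 (edgeR adjusted p = 0.00226). In ST_DL this gene had 48.1, 57.8 and 53.9 CPM, and in HT_DL 48.1, 58.8, 60.9 and 58.9 CPM, so both lay between HT_HL and ST_HL.

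Solyc03g044600.2.1 had 5.20, 7.99 and 8.46 CPM in HT_HL embryo, against 26.3, 28.8, 40.9 and 31 CPM in ST_HL embryo. The log2 fold change was -2.18 ± 0.31 (SE, edgeR adjusted p = 0.00159), and -2.08 without the 4 libraries (edgeR adjusted p = 0.00694). It was also lower under heat in dim light, with 14.9, 14.8, 19.9 and 13.5 CPM in HT_DL, against 28.0, 78.7 and 63.6 CPM in ST_DL. No value at high temperature reached the lowest value at standard temperature, in either light.

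Solyc07g020960.3.1 had 10.4, 12.5 and 16.5 CPM in HT_HL embryo, against 24.6, 25.2, 27.6 and 28.1 CPM in ST_HL embryo, without overlap. Its log2 fold change was -1.04 ± 0.17 (SE, edgeR adjusted p = 0.00287), and -1.09 without the 4 libraries. In HT_DL it had 24.9, 24.4, 20.4 and 26.0 CPM, near ST_HL, and in ST_DL it had 33.6, 31.7 and 29.9 CPM. Low values of this gene were thus seen in HT_HL and in no other condition.

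Of the 3 neighbours on chromosome 7, 2 were called lower. Solyc07g043460.3.1 had 24.5, 38.5 and 20.4 CPM in HT_HL embryo, against 45.2, 78.8, 88.5 and 64.0 CPM in ST_HL embryo, with a log2 fold change of -1.37 ± 0.22 (SE, edgeR adjusted p = 0.00262). Solyc07g043480.1.1 had 11.7, 30.8 and 7.82 CPM in HT_HL, against 27.1, 89.3, 78.2 and 43.0 CPM in ST_HL, with a log2 fold change of -1.90 ± 0.51 (SE, edgeR adjusted p = 0.0250). In the second of these the groups overlapped, since HT_HL replicate 2 was above ST_HL replicate 1, and without the 4 libraries it was not called, at -1.19 (edgeR adjusted p = 0.0724). The call of the first was kept, at -1.08 (edgeR adjusted p = 0.0105). Their neighbour Solyc07g043420.3.1 was not called, with 684, 771 and 843 CPM in HT_HL and 640, 1506, 1351 and 737 CPM in ST_HL.

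The pair of dioxygenases on chromosome 1 was also called lower. Solyc01g006610.2.1 had 52.1, 93.1 and 53.2 CPM in HT_HL embryo, against 96.9, 96.0, 186 and 138 CPM in ST_HL embryo, with a log2 fold change of -1.03 ± 0.25 (SE, edgeR adjusted p = 0.0166). Solyc01g006580.4.1 had 7.89, 27.3 and 4.78 CPM, against 20.1, 83.7, 89.4 and 33.3 CPM, with a log2 fold change of -2.16 ± 0.69 (SE, edgeR adjusted p = 0.0466). In both, HT_HL replicate 2 was close to or above the lowest ST_HL value. Without the 4 libraries neither was called. Solyc01g006610.2.1 was then at -0.93 (edgeR adjusted p = 0.0315), nearly as large but short of the fold limit, and Solyc01g006580.4.1 was at -1.13 (edgeR adjusted p = 0.206).

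Solyc08g014330.3.1 had 5.97, 16.7 and 9.19 CPM in HT_HL embryo, against 19.3, 75.3, 97.3 and 27.1 CPM in ST_HL embryo. Its log2 fold change was -2.41 ± 0.69 (SE, edgeR adjusted p = 0.0321) and -1.23 without the 4 libraries (edgeR adjusted p = 0.0280), so the call was kept and the size was not. Solyc09g014230.2.1 had 25.4, 33.6 and 29.7 CPM in HT_HL, against 48.4, 144, 121 and 45.7 CPM in ST_HL, with a log2 fold change of -1.64 ± 0.45 (SE, edgeR adjusted p = 0.0263). Without the 4 libraries it was at -0.76 (edgeR adjusted p = 0.0414), short of the fold limit. The number of members called lower in HT_HL also depended on single libraries. It was 3 without HT_HL replicate 1, 4 without HT_HL replicate 3, and 5 and 4 without ST_HL replicates 2 and 3. It was 14 and 16 without HT_DL replicates 1 and 4, and 19 (with 1 higher) without ST_HL replicate 1. In the same order, 140, 648, 411, 355, 830, 731 and 1039 of 19064 to 19677 genes were lower, against 657 with all libraries.

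**Figure D4:**
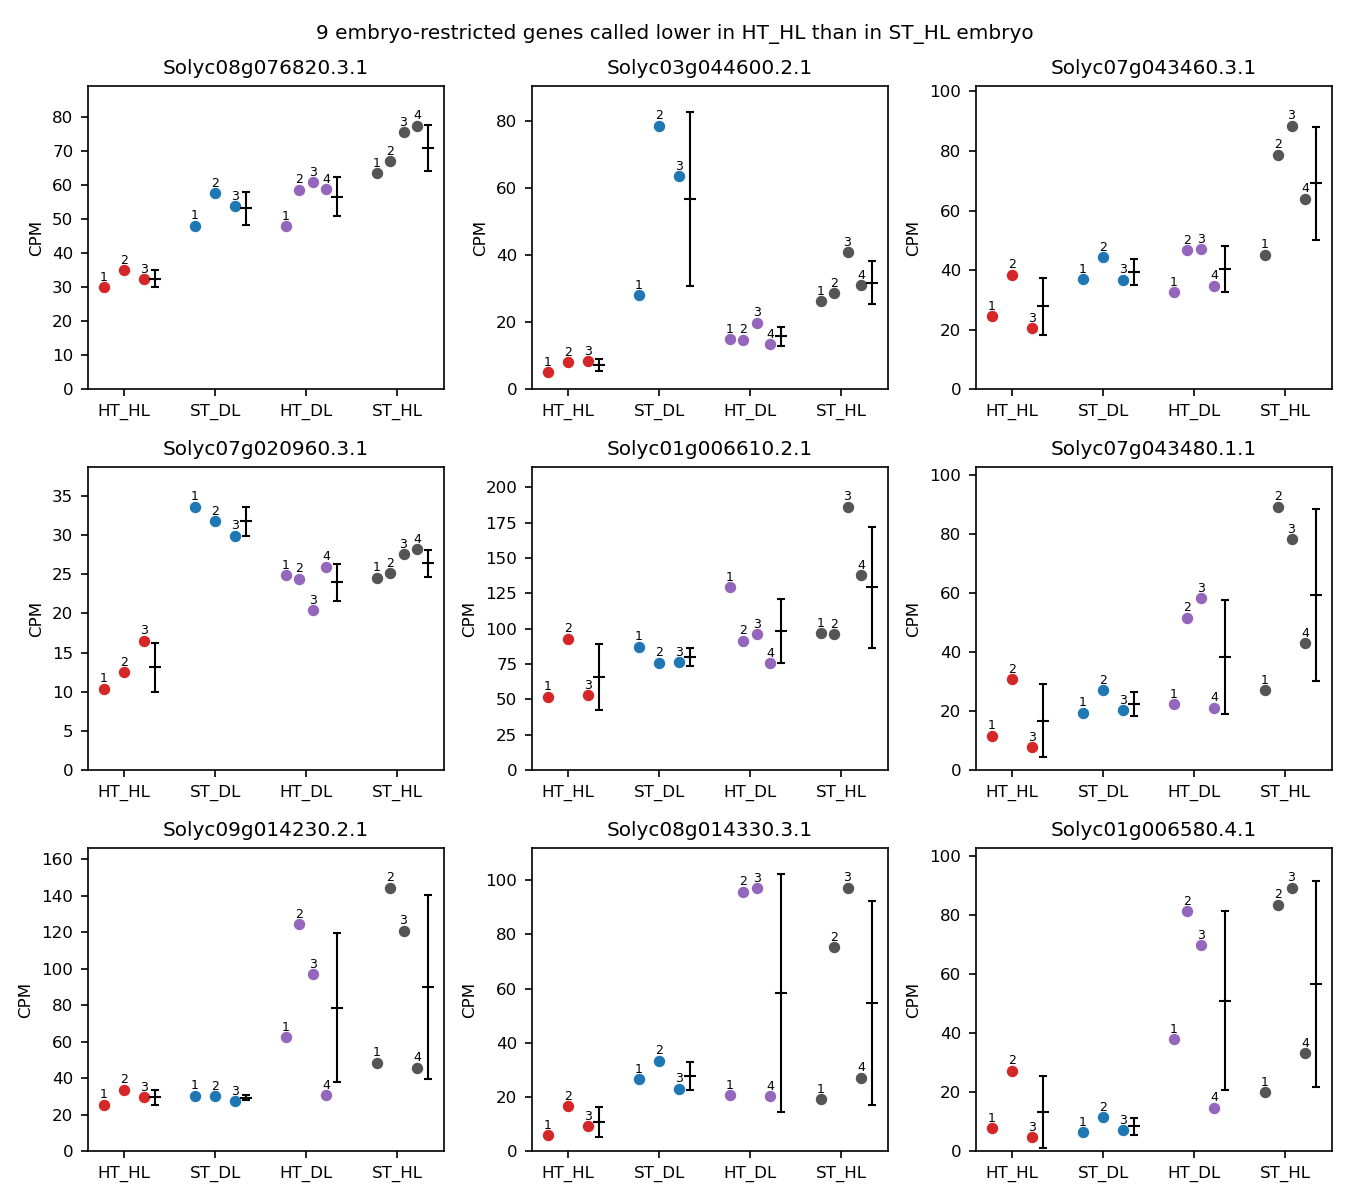
CPM in each embryo library of the 9 genes called lower in HT_HL than in ST_HL, with the replicate number above each point and the mean ± SD beside each group. HT_HL and ST_HL do not overlap in Solyc08g076820.3.1 (30.2 to 35.1 against 63.6 to 77.6 CPM), and in the genes of the lowest row the spread of ST_HL and HT_DL comes with their replicates 2 and 3.

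Within HT_HL the 3 libraries also differed in the members. Replicate 2 had the highest value in 36 of the 55 genes and replicate 3 the lowest in 32. The summed level of all members was 3793, 4832 and 3612 CPM in replicates 1 to 3. In ST_DL no replicate stood out, with the highest value in 21, 18 and 16 genes. The part of HT_HL replicate 2 in the calls was not tested beyond leaving it out.

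The second comparison asked how dim light at standard temperature changed the members. It shares the ST_HL libraries with the first. None of the 55 was called, either higher or lower, where 0.0935% of all genes were higher and 0.493% were lower. At an unadjusted p below 0.05 there were 30 members and 4576 of the 19253 genes. DESeq2 called 19 members, of which 18 were lower and 1 was higher, and of all genes 674 lower and 78 higher. The median log2 fold change was -0.59 over the members and -0.077 over all genes, and 49 members had a negative value. Nothing is read from this contrast of medians, because the rule favours genes that are high in ST_HL. On the 10 libraries left without the 4, 0 were called, where 52 of 18179 genes were. The median over the 44 genes with an embryo median of at least 5 CPM was then -0.30, and over all genes it was -0.0115. Some of the 44 met the rule only through the 4 libraries, and the contrast of these medians was not tested.

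The members closest to a call were Solyc01g096280.2.1 and Solyc02g078100.3.1. Solyc01g096280.2.1 had 20.0, 25.9 and 26.4 CPM in ST_DL embryo, against 50.0, 76.2, 75.7 and 52.7 CPM in ST_HL embryo, a log2 fold change of -1.19 (edgeR adjusted p = 0.0586). Solyc02g078100.3.1 had 0.721, 0.575 and 1.82 CPM in ST_DL, against 5.43, 61.0, 66.9 and 7.25 CPM in ST_HL (edgeR adjusted p = 0.0630). The groups did not overlap in either gene. Both were called with DESeq2, with the replicate block and with column sums in place of TMM factors, a scaling that puts the median of all genes in this comparison at -0.29. The values without the 4 libraries were -0.92 (edgeR adjusted p = 0.168) and -2.43 (edgeR adjusted p = 0.0677).

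The third comparison asked how heat and dim light together changed the members. None of the 55 was called by edgeR or by DESeq2, and 0% of all genes were called higher and 0% lower by edgeR. At an unadjusted p below 0.05 there were 5 members and 1004 of the 19253 genes. The values had no common direction, with 27 members positive and 28 negative. The smallest p was that of Solyc07g043460.3.1, with 32.5, 46.7, 47.1 and 34.8 CPM in HT_DL embryo, against 45.2, 78.8, 88.5 and 64.0 CPM in ST_HL embryo (log2 fold change -0.74, edgeR adjusted p = 0.756). Next was Solyc03g044600.2.1, at -0.96 (edgeR adjusted p = 0.824). Both groups hold 2 of the 4 libraries that stood apart, and without these the count was also 0, where 6 of 18179 genes were called.

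**Figure D5:**
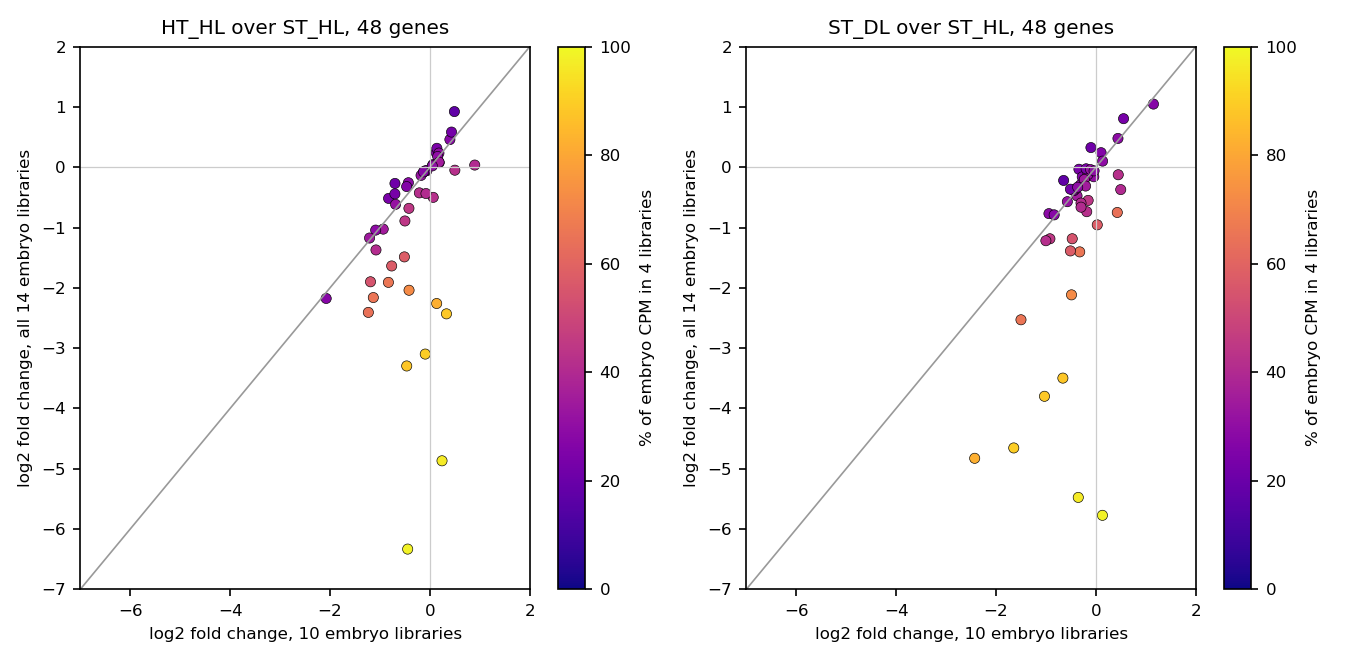
Log2 fold change of the members in HT_HL over ST_HL (left) and ST_DL over ST_HL (right), fitted on all 14 embryo libraries (vertical axis) and on the 10 left without ST_HL replicates 2 and 3 and HT_DL replicates 2 and 3 (horizontal axis), for the 48 members tested in both, coloured by the percentage of embryo CPM in those 4 libraries. Genes with a low percentage lie near the line of equal values, and genes with a high percentage lie far below it.

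Light was also compared at high temperature. Of the 55 genes, 3 were called higher in HT_DL than in HT_HL and 0 lower, where 2.36% of all genes were higher and 1.49% were lower. They were Solyc03g044600.2.1 at 1.21 ± 0.30 (SE, edgeR adjusted p = 0.0203), Solyc08g014330.3.1 at 2.53 ± 0.69 (SE, edgeR adjusted p = 0.0297) and Solyc09g014230.2.1 at 1.47 ± 0.44 (SE, edgeR adjusted p = 0.0429) on the log2 scale. Solyc08g014330.3.1 had 20.6, 95.8, 97.1 and 20.2 CPM in HT_DL, against 5.97, 16.7 and 9.19 CPM in HT_HL. The HT_DL replicates that stood apart were far above the others in that gene. On those 10 libraries none of the 3 was called. Solyc03g044600.2.1 was at 1.12, about as large (edgeR adjusted p = 0.0705), Solyc08g014330.3.1 at 1.11 (edgeR adjusted p = 0.0513) and Solyc09g014230.2.1 at 0.80 (edgeR adjusted p = 0.0466). The 1 gene called was Solyc07g020960.3.1, higher by 1.1 (edgeR adjusted p = 0.0153), where 256 of 18179 genes were higher. With all libraries, the shares of members and of all genes are not compared, because the rule also favours genes that are high in HT_DL.

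Heat in dim light gave 1 member higher in HT_DL than in ST_DL and 1 lower, where 0.836% of all genes were higher and 0.395% were lower. These shares are not compared either, because the rule favours genes that are high in HT_DL. Solyc03g044600.2.1 was lower, at -2.01 ± 0.29 (SE, edgeR adjusted p = 0.00397) and at -2.11 without the 4 libraries. Solyc01g096280.2.1 was higher, with 52.6, 95.6, 75.1 and 44.2 CPM in HT_DL, against 20.0, 25.9 and 26.4 CPM in ST_DL (log2 fold change 1.29 ± 0.29, SE, edgeR adjusted p = 0.0297). Its groups did not overlap, and without the 4 libraries it was at 0.89 (edgeR adjusted p = 0.106). In that fit 2 other members were called higher, where 142 of 18179 genes were. Solyc02g078100.3.1 was at 2.40 (edgeR adjusted p = 0.0331), with 8.53 and 3.5 CPM in HT_DL replicates 1 and 4, against 0.721, 0.575 and 1.82 CPM in ST_DL. Solyc12g006470.2.1, listed as a GABA pyruvate transaminase, was at 1.57 (edgeR adjusted p = 0.0380). It had 26.8 and 14.3 CPM in HT_DL replicates 1 and 4, against 7.93, 5.32 and 5.67 CPM in ST_DL.

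Whether the effect of light differed between temperatures was tested as the change of HT_DL over HT_HL minus the change of ST_DL over ST_HL. It was called positive in 13 of the 55 genes and negative in 0, beside 1.39% of all genes positive and 0.369% negative. Nothing is read from this contrast of shares, because most of the 13 met the rule only through the 4 libraries, which are all in HT_DL or ST_HL. These were the 5 with an embryo median under 5 CPM, and 4 more. Without the 4 libraries, Solyc12g006470.2.1, Solyc10g007960.1.1 and Solyc02g078100.3.1 had ratios of 10.6, 13.9 and 21.5. Solyc01g006580.4.1 then had an embryo mean of 17.1 CPM. With the 4 libraries left out it was called in 0 of 48 members, but only 2 of 18179 genes were called in that fit. There the median over the 44 genes with an embryo median of at least 5 CPM was 0.52, with 34 of 44 positive, against 0.56 with all libraries. Over all genes the median was -0.0006 without the 4 libraries and 0.074 with all libraries. Some of the 44 met the rule only through the 4 libraries, and the contrast of these medians was not tested. The count was 1 when any of the 4 was left out, where 23 to 52 of all genes were called. It was 0 or 1 without HT_HL replicate 1 or an ST_DL replicate, where 0 to 20 genes were. It was 22 to 26 without ST_HL replicate 1 or 4 or HT_DL replicate 1 or 4, where 1593 to 2474 genes were. HT_DL and ST_HL enter this contrast with the same sign and hold all 4 libraries that stood apart, so the condition and these libraries cannot be told apart in it. The largest fitted values were those of Solyc04g080620.3.1, Solyc06g050870.3.1, Solyc02g067870.3.1 and Solyc08g014000.3.1, which were near 0 in the other libraries, and no fold is given for them.

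Of the 13, Solyc08g076820.3.1 depended least on these libraries. Its difference of log2 fold changes was 1.1 ± 0.15 (SE, edgeR adjusted p = 0.0173), with HT_DL, HT_HL, ST_DL and ST_HL means of 56.7, 32.6, 53.3 and 71.0 CPM. Neither light change was called on its own in this gene, with 0.89 for HT_DL over HT_HL (edgeR adjusted p = 0.00127, short of the fold limit) and -0.20 for ST_DL over ST_HL (edgeR adjusted p = 0.259). Without the 4 libraries the interaction was 1.11, as large but not called (edgeR adjusted p = 0.0755). In Solyc01g096280.2.1 the difference was 1.97 ± 0.41 (SE, edgeR adjusted p = 0.0375) and in Solyc07g043460.3.1 it was 1.23 ± 0.30 (SE, edgeR adjusted p = 0.0483). Neither of these was called when the 4 libraries were left out, at 1.31 and 0.74 (edgeR adjusted p = 0.179 and 0.279).

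Of the 7 tested genes listed under GABA degradation, Solyc12g006470.2.1 was the one with a called interaction, beside 1.39% of all genes positive. This gene met the rule only through the 4 libraries that stood apart. Without them its interaction was 1.66 and not called (edgeR adjusted p = 0.176), so nothing is read from the call. In HT_HL over ST_HL, 0 of these 7 genes were called, and their median log2 fold change was -0.92. Of the 24 lipid body genes tested, 2 were called lower in HT_HL than in ST_HL and 0 higher, with a median of -0.094, beside the 3.41% of all genes that were lower.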

How the data were processed

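The authors quantified 50-base reads with Salmon in quasi-mapping mode on the SL4.0 tomato transcriptome and deposited expected counts (estimated reads per transcript, not normalized), of which 10.5% were not whole. They were rounded before tests. CPM used column totals, and the 55 genes and all lists were chosen with earlier results of these data known. The embryo libraries were fitted together with 1 coefficient per condition in edgeR 4.0.16 under R 4.3.3 (TMM factors, filterByExpr at min.count 10 and min.total.count 15, quasi-likelihood F-test, Benjamini-Hochberg adjustment over 19253 genes). All 55 members passed this filter, some only through the libraries where they were high. DESeq2 1.42.0 was an alternative. The common biological coefficient of variation was 0.365, so replicate spread limits precision more than counting error does.

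Genes named are the 10 with the highest embryo mean, the called members with the 4 largest changes in each direction of each comparison (the 2 smallest p where fewer than 2 were called), those described by MapMan, and the 2 nearest each side of each limit. The other called genes, Solyc11g008560.2.1, the dioxygenases and the neighbours were singled out after their values were seen. The RefSeq gene table used here pairs with 0 of the 33976 IDs, so no symbols or sequences are printed. The annotation tables were used in part.

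For HT_DL and ST_HL embryo, libraries with the same replicate number had correlated deviations in all 4 pairs (0.750 to 0.832, against up to 0.849 between other numbers), and the replicate block changed no member's call there. Alternatives were RLE normalization, no filter, no fold threshold, the replicate block, fits of 2 conditions with and without the block, leaving out each replicate or the 4 libraries that stood apart, and, chosen after seeing the data, column sums without normalization factors.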

Additional observations from a re-analysis of the deposited data

Results flagged for a closer look

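One value among replicates of 4 stood far from the others. In HT_DL embryo, replicate 1 had 48.1 CPM of Solyc08g076820.3.1, where the other 3 had 58.8 to 60.9 CPM. Of 56 groups of 4 examined, 1 passed this limit, and chance alone gives about 2.8.

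The light by temperature interaction was called in 13 members (edgeR's quasi-likelihood test in the embryo, 4 HT_DL, 3 HT_HL, 3 ST_DL and 4 ST_HL libraries). The adjusted p was 0.0173 for Solyc08g076820.3.1, 0.0375 for Solyc01g096280.2.1, 0.0378 for Solyc01g006580.4.1, 0.0397 for Solyc09g014230.2.1, 0.0445 for Solyc02g078100.3.1, 0.0458 for Solyc12g006470.2.1, 0.0473 for Solyc10g007960.1.1 and 0.0483 for Solyc07g043460.3.1. It was 0.0466 for Solyc04g080620.3.1 and Solyc08g014000.3.1, 0.0474 for Solyc06g069110.4.1, and 0.0494 for Solyc02g067870.3.1 and Solyc06g050870.3.1, which were near 0 outside ST_HL replicates 2 and 3 and HT_DL replicates 2 and 3. These last 5 met the rule only through those 4 libraries, which are all in HT_DL or ST_HL, so their condition and these libraries cannot be told apart. Solyc01g006580.4.1, Solyc02g078100.3.1, Solyc10g007960.1.1 and Solyc12g006470.2.1 also met the rule only through them. Without the 4 libraries 0 of 48 members and 2 of 18179 genes were called.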

How the results depend on the processing

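The number of members was 36 without the 4 libraries that stood apart, 99 at a ratio of 20, 10 at a ratio of 100, 45 with TMM-adjusted library sizes (all among the 55), 52 with the mean of condition means (51 among the 55) and 49 to 61 on leaving out 1 replicate. Counts of members called are given in the order HT_HL, ST_DL and HT_DL over ST_HL, HT_DL over HT_HL, HT_DL over ST_DL, and the interaction. They were 9, 0, 0, 3, 2 and 13 as reported, where 932, 113, 0, 742, 237 and 338 of all genes were called. DESeq2 gave 23, 19, 0, 20, 19 and 26, where 1893, 752, 5, 1736, 890 and 2569 genes were called. The replicate block gave 23, 19, 0, 21, 18 and 25, where 2274, 1132, 0, 2034, 1229 and 3224 genes were called. Without the 4 libraries they were 5, 0, 0, 1, 3 and 0, where 761, 52, 6, 455, 222 and 2 genes were called. Column sums gave 9, 2, 0, 2, 4 and 5, where 903, 283, 0, 774, 395 and 221 genes were called. No filter gave 8, 0, 0, 2, 2 and 4, where 798, 78, 0, 642, 170 and 112 genes were called. No fold threshold gave 10, 0, 0, 6, 5 and 13, where 3418, 390, 0, 2810, 855 and 629 genes were called. RLE normalization gave 10, 0, 0, 3, 2 and 15, where 936, 124, 0, 748, 224 and 513 genes were called. Fits of only the 2 conditions compared gave 6, 1, 0, 1 and 3, where 615, 65, 0, 140 and 140 genes were called. With the replicate block they gave 0 members in all 5, where 0, 0, 5, 0 and 0 genes were called. Those fits thus say nothing about the members in particular. Leaving out 1 replicate gave 220 to 1433, 16 to 136, 0, 135 to 1399, 53 to 341 and 0 to 2474 calls over all genes. Among the members it gave 3 to 20, 0 to 1, 0, 0 to 13, 1 to 6 and 0 to 26. HT_HL over ST_HL had 3 without HT_HL replicate 1, 4 without HT_HL replicate 3, 5 and 4 without ST_HL replicates 2 and 3, and 20 without ST_HL replicate 1. HT_DL over HT_HL had 0 without HT_HL replicate 1, 1 without HT_DL replicate 2 or 3, 12 and 13 without HT_DL replicates 1 and 4, 7 without HT_HL replicate 2 or ST_HL replicate 1, and 5 without ST_HL replicate 4. HT_DL over ST_DL had 1 without any ST_DL replicate or HT_DL replicate 2 or 3, 6 without HT_DL replicate 4 and 4 without HT_HL replicate 2. The interaction had 0 without HT_HL replicate 1 or ST_DL replicate 1 or 3, and 4 without HT_HL replicate 3. The cause of these changes was not tested. Outside HT_DL and ST_HL the replicate numbers did not pair the libraries, with at least 1 correlation at or below -0.176 in each comparison. Of the members called or closest to a call, none changed direction under any of the alternatives. Counts of calls in the embryo therefore depend on the method and on single libraries, whereas Solyc08g076820.3.1, Solyc03g044600.2.1 and Solyc07g043460.3.1 kept their HT_HL calls under 22 of 23 alternatives, all but the block in the fit of 2 conditions.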
